A study of Mus musculus with 30 samples.

Results

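Uteri of wild-type (WT) prepubertal female mice, 21 days old, were compared after 24 h of insulin-like growth factor 1 (IGF1) and after saline vehicle, with 3 arrays in each group and 6 of the 30 arrays of the series. The IGF1 mice received 50 ug of IGF1 in PBS by intraperitoneal injection 3 times, at 0, 8 and 16 h, and the uterus was taken at 24 h, which is 8 h after the last injection. The vehicle mice received 100 ul of saline once by the same route, 24 h before collection. PBS against saline, and 3 injections against 1, therefore cannot be told apart from IGF1 itself. WT uteri taken 2 h after 1 injection of 50 ug of IGF1, WT uteri taken 24 h after 250 ng of 17β-estradiol (E2) in 100 ul of saline, and knockout (KO) uteri of the genotype labelled Ex3aERKO, which lacks estrogen receptor alpha (ERa), after vehicle or the same 24 h IGF1 schedule, served as direct comparisons of 3 arrays each. KO uteri 2 h or 24 h after the same E2 dose, or 2 h after 1 injection of 50 ug of IGF1, are given for Hpgds only. The labels do not say that replicates are separate animals, so p-values measure the spread between these samples, which may be technical.

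IGF1 is a peptide hormone that binds the receptor tyrosine kinase encoded by Igf1r. The receptor signals through insulin receptor substrates to PI3K, AKT and mTOR, which favour protein synthesis and keep FoxO transcription factors out of the nucleus, and through the MAPK cascade, which drives immediate early genes. In the uterus Igf1 is an estrogen-induced gene of the stroma, and the growth factor takes part in the growth response of the epithelium; secreted IGF binding proteins set how much of it reaches the receptor.

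Levels are the deposited log2 values, and changes are differences of log2 group means, IGF1 minus vehicle, ± the standard error (SE) of the limma fit with n = 3 arrays per group. A gene was called when its limma p-value, adjusted over all 30142 genes, was under 0.05. The background floor of an array was the 95th percentile of 1083 olfactory receptor genes, and ran from 5.66 to 6.55 over the 30 arrays. A fold is given as at least N-fold where the dimmer group lay at that floor. The number of arrays limits the precision. Vehicle replicate 1 stood apart from the other arrays. It had the lowest array weight of the 30 (0.166), the lowest mean correlation with its own group (0.975), and a floor of 6.48. Its level of Xist, the X-inactivation transcript of female cells, was 10.16, against 18.12 and 18.09 on the other vehicle arrays and 17.76 to 17.97 on the IGF1 arrays. The Y-linked genes Eif2s3y, Kdm5d and Uty lay at background on all 6 arrays, and the part of this array in the results was not tested beyond the values without it that follow.

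After 24 h of IGF1, 1291 of 30142 genes were called, 4.28% of those tested. Of these, 1001 (3.32%) were higher and 290 (0.962%) were lower, and 495 of the rises and 59 of the falls were at least 2-fold. The median difference over all genes was -0.07, and 0.01 without vehicle replicate 1. Of the 30142 genes, 13328 lay at background in both groups, so shares over all genes include many that were not detected. With dim genes removed, 1167 of 16487 genes were called higher and 242 lower. The 3 IGF1 arrays lay above the 3 vehicle arrays for 994 of the 1001 rises and below them for 287 of the 290 falls; over all genes, 11.7% lay above and 11.2% below without overlap. The count fell to 547 without vehicle replicate 1 (413 higher, 134 lower), of which 481 were among the 1291. Without IGF1 replicate 1 it was 278, without IGF1 replicate 3 it was 429, and a fit on these 6 arrays alone called 136. After quantile normalization 1045 genes were called, and 66.8% of them were higher in place of 77.5%.

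The largest rise among the genes that met the naming rule was that of Igfbp5, which encodes a binding protein for IGFs that is secreted and held in the matrix. Igfbp5 measured 15.59, 14.79 and 15.19 on the IGF1 arrays and 10.92, 11.19 and 11.11 on the vehicle arrays. The groups were far apart on every array, and the difference was 4.12 ± 0.55, or 17.3-fold (limma adjusted p = 0.000395). This call held under each of the 14 alternative settings. Igfbp4, another secreted inhibitor of IGF action, was the only other called member of 22 measured genes of the IGF system. It measured 12.64, 12.27 and 13.03 with IGF1 and 11.28, 11.56 and 11.70 with vehicle, a difference of 1.14 ± 0.31 (limma adjusted p = 0.0362), and it was called under 7 of the 14 alternatives (adjusted p = 0.145 without vehicle replicate 1).

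The other members of the system did not pass the test. The ligand gene Igf1 measured 10.41, 10.06 and 9.97 with IGF1 and 10.53 and 10.69 on vehicle replicates 2 and 3, while vehicle replicate 1 lay within the IGF1 values (difference -0.26 ± 0.28, limma adjusted p = 0.639). The receptor gene Igf1r had a difference of -0.78 ± 0.33 (limma adjusted p = 0.204), with 10.46, 11.23 and 10.63 against 10.99, 11.88 and 11.79. Igf2r, the receptor that clears IGF2, had -0.18 ± 0.32, and the ligand gene Igf2 had -0.17 ± 0.19, with levels of 6.12 to 6.25 on the IGF1 arrays. Among the adaptors that carry the signal of the receptor, the differences were 0.08 ± 0.27 for Irs1, -0.88 ± 0.51 for Irs2, 0.29 ± 0.21 for Shc1, 0.45 ± 0.18 for Grb10 and -0.13 ± 0.21 for Grb14. Among the other binding proteins, Igfbp3, the main carrier in plasma, had -0.65 ± 0.49, Igfbp6 had -0.45 ± 0.45 and Igfbp7 had 0.63 ± 0.26, while Igfbp1, Igfbp2 and Igfals were at background in both groups. Pappa, the protease that cleaves IGFBP-4 and frees IGF, had a difference of -0.91 ± 0.39 (limma adjusted p = 0.201). Its inhibitors Stc1 and Stc2 had 0.92 ± 0.48 and 0.01 ± 0.27, the protease gene Htra1 had 0.37 ± 0.17, and the RNA-binding protein gene Igf2bp3 had -0.31 ± 0.13.

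**Figure D1:**
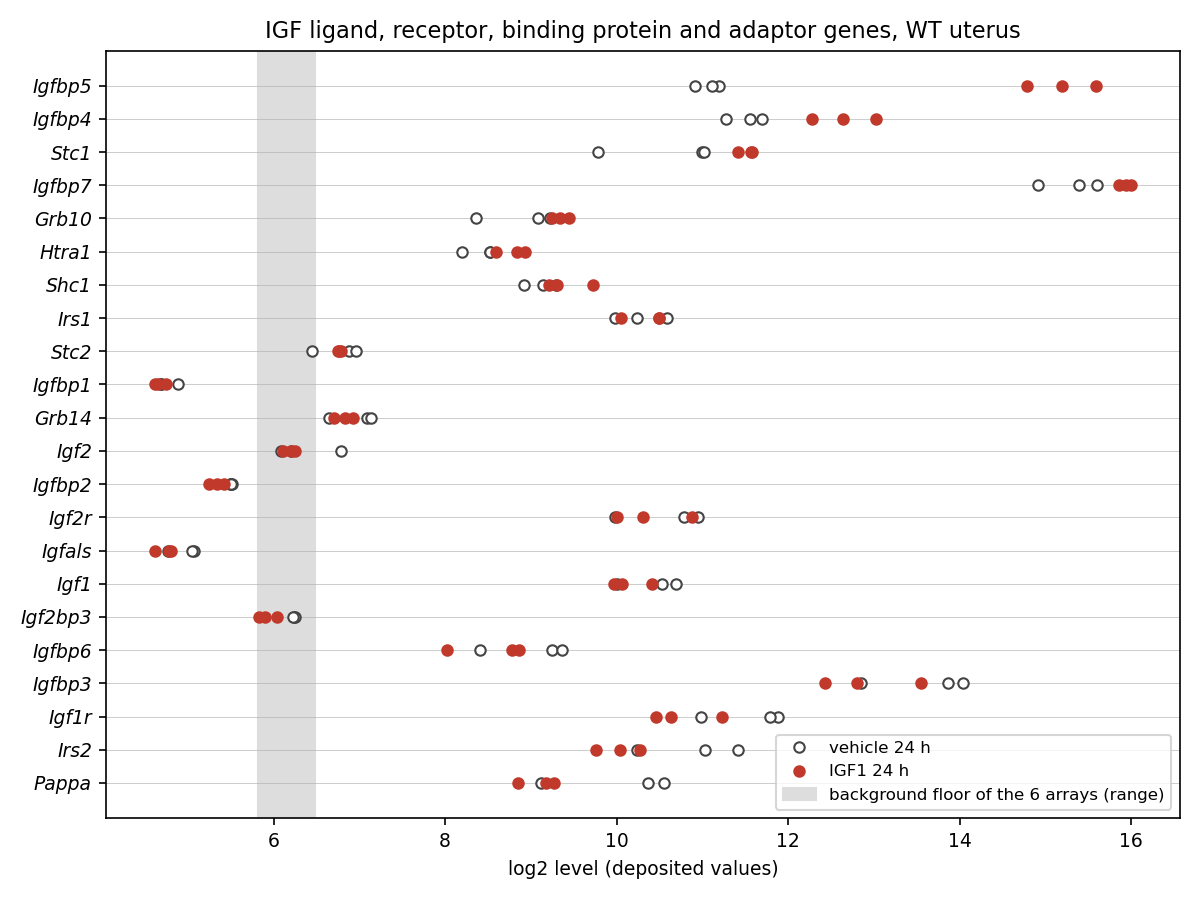
Log2 level of the 22 measured IGF system genes on each array, with open circles for vehicle and filled red circles for IGF1 (n = 3 each); the grey band is the range of the background floors of the 6 arrays. Igfbp5 separates the groups by 4.12 log2 units and Igfbp4 by 1.14, and the other 20 genes were not called.

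Downstream of the receptor, 3 of 24 measured genes of the PI3K, AKT and mTOR pathway rose (12.5%, against 3.32% of all genes). None fell, and the median was 0.20. The 3 rises are named next. These were Mlst8, a subunit of both mTOR complexes (0.80 ± 0.23), Eif4ebp2, a translation repressor that mTOR phosphorylates (0.80 ± 0.18), and Tsc2, an inhibitor of mTOR complex 1 (0.59 ± 0.15). None of the 3 was called without vehicle replicate 1 or IGF1 replicate 1, or in the fit on the 6 arrays. Without IGF1 replicate 3 the list had 1 rise, and it had 1 fall without vehicle replicate 1 or IGF1 replicate 2. FoxO targets were not called in either direction (0 of 24, median -0.20), nor were immediate early genes (0 of 24, median -0.07) or MAPK feedback genes (0 of 17, median -0.10). The smallest p of each list belonged to Foxo1 itself (-0.46 ± 0.17, limma adjusted p = 0.139), Srf (0.65 ± 0.28, limma adjusted p = 0.208) and Dusp2, which was at background in both groups.

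Genes of mitosis rose as a group. Of 32 measured members of the mitosis and G2/M list, 23 rose and none fell (71.9%, against 3.32% of all genes). The median difference was 1.28 against -0.07. For 30 of the 32 the IGF1 arrays lay above the vehicle arrays without overlap, as they did for 11.7% of all genes. Mki67, the gene of the proliferation antigen Ki-67, measured 10.39, 10.65 and 10.51 with IGF1 and 7.99, 7.87 and 7.55 with vehicle, a difference of 2.72 ± 0.59 or 6.58-fold (limma adjusted p = 0.0101). Every IGF1 array was above every vehicle array by more than the spread within either group. Top2a, the topoisomerase that untangles sister chromatids, measured 10.51, 10.63 and 10.99 against 8.37, 8.16 and 7.68 (2.64 ± 0.57, limma adjusted p = 0.0103). Ube2c, the ubiquitin-conjugating enzyme of the anaphase-promoting complex, measured 10.08, 10.01 and 9.48 against 7.88, 7.41 and 7.54 (2.24 ± 0.53, limma adjusted p = 0.0175). Ccnb2, a cyclin that activates CDK1, lay at background with vehicle (5.92, 6.26 and 5.87) and above it with IGF1 (8.27, 7.99 and 8.25), so that it rose at least 3.81-fold. The spindle motor Kif11 rose by 2.05 ± 0.39 and the spindle and hyaluronan-binding protein gene Hmmr by 1.74 ± 0.40. The other 17 called members included Cdk1, Ccna2, Aurkb, Bub1, Birc5, Cenpe, Cenpf, Prc1 and Ect2. The mean level of the 32 genes, set against the mean of the vehicle arrays, was 1.14, 1.26 and 1.28 on the IGF1 arrays and 0.15, -0.04 and -0.11 on the vehicle arrays. Without vehicle replicate 1, 17 members were called; without IGF1 replicate 1 or 3, 12 were called in each case, and 15 without vehicle replicate 3.

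Promoters of these genes are known for 2 short elements, CHR and CCAAT, that are bound by cell cycle repressor and activator complexes. RefSeq promoter windows (GRCm38.p6, 250 bases before to 50 after each start) were matched for 27 of the 32 genes and searched on both strands for CHR (TTTGAA) and CCAAT. CHR letters were in 21 of the 27 (77.8%, against 20.2% of 27025 genes with a window), CCAAT in 20 (74.1%, against 41.1%), and both in 18 (66.7%, against 7.97%). Cdc20 carries both before its start and was not called (limma adjusted p = 0.101). The stretches of 3 called genes are shown because they carry both elements close together; capitals mark CHR and CCAAT on either strand (TTCAAA and ATTGG are the opposite strand), and a match is a description of the letters only.
Mki67 (chr7:135716467-135716572, minus strand): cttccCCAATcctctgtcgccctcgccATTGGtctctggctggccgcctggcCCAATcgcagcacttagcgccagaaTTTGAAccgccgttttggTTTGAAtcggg
Kif11 (chr19:37376332-37376373, plus strand): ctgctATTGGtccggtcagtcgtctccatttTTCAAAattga
Prc1 (chr7:80294409-80294456, plus strand): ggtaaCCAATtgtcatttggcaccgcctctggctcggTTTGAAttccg

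DNA replication genes rose with the mitotic genes, by smaller amounts. Of 41 measured members of the DNA replication and G1/S list, 19 rose and none fell (46.3%, against 3.32% of all genes), with a median of 0.53. Mcm6, a subunit of the MCM helicase that opens DNA for copying, measured 10.47, 9.60 and 10.79 with IGF1 and 9.07, 9.28 and 9.07 with vehicle (1.15 ± 0.22, limma adjusted p = 0.00589). IGF1 replicate 2 was the lowest IGF1 array for this gene, and for the mean of the whole list, where the IGF1 arrays stood at 0.71, 0.28 and 0.82 above the vehicle mean. Mcm3, of the same helicase, rose by 1.26 ± 0.22. Rrm1, the large subunit of ribonucleotide reductase, which makes deoxynucleotides, rose by 1.34 ± 0.27, and its partner Rrm2 rose from background by at least 1.34-fold. E2f8, a cell cycle repressor of the E2F family, rose from background by at least 1.45-fold, and Pcna, the sliding clamp of the polymerases, rose by 1.09 ± 0.27. The rest of the 19 included Mcm2, Mcm5, Cdc45, Gins2, Prim1, Pole, Lig1, Uhrf1, Dnmt1 and Tyms. In the list of cyclin-dependent kinase inhibitors, G1 cyclins and their partners, 2 of 15 rose (13.3%, against 3.32% of all genes), but no inhibitor or cyclin was called. The 2 rises were the G1 kinase Cdk4 (0.98 ± 0.28) and the pocket protein gene Rbl1 (0.64 ± 0.15). Neither was called without vehicle replicate 1, IGF1 replicate 1 or IGF1 replicate 3, or in the fit on the 6 arrays. Without vehicle replicate 2 or 3, 1 member of the list was called. The replication count was 18 without vehicle replicate 1, 10 without IGF1 replicate 1 and 8 without IGF1 replicate 3, and the fit on the 6 arrays alone called 1 member, where it called 15 of the mitosis list.

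E2F letters (TTTCCCGC, TTTCGCGC, TTTGCCGC or TTTGGCGC, either strand) were in 13 of the 33 replication genes with a window (39.4%), against 2.6% of all genes with one, and in 1 of the 27 mitosis genes. Cdc6, Gins3, Rfc3 and Pola1 also carry E2F letters before the start and were not called (limma adjusted p = 0.115, 0.922, 0.279 and 0.0706). The stretches of 3 called genes are shown, with E2F letters in capitals. In Mcm5 and Mcm6 matches on opposite strands overlap.
Mcm6 (chr1:128359740-128359820, minus strand): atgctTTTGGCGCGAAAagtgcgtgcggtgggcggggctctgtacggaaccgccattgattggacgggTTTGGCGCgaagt
Mcm5 (chr8:75109351-75109372, plus strand): agaacTTTCGCGCCAAAacgtc
Uhrf1 (chr17:56304123-56304140, plus strand): tcgggTTTCGCGCgccca

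Histone genes that were called mostly rose. Of 32 measured linker and core histone genes, 7 rose (21.9%, against 3.32% of all genes) and 1 fell (3.12%, against 0.962%). The median was 0.43, and 12 were at background in both groups. H1f5, a replication-dependent linker histone, measured 11.23, 9.83 and 10.65 with IGF1 and 6.97, 7.13 and 6.90 with vehicle (3.57 ± 0.60, or 11.9-fold, limma adjusted p = 0.00187). Hist1h2aj and H2ac10, both H2A genes, rose by 3.12 ± 0.55 and 2.82 ± 0.44, with IGF1 replicate 1 the highest array for each. H2ac15 rose from background by at least 2.99-fold, and H2bc1 and H2ac24 rose by 1.31 ± 0.36 and 1.23 ± 0.33. H1f2, another linker histone, fell: it measured 9.20, 9.91 and 8.51 with IGF1 and 10.37, 10.86 and 11.39 with vehicle (-1.67 ± 0.45, limma adjusted p = 0.0353). Histone genes are close in sequence and can be read by the same probes, which leaves the member behind each change uncertain. Without IGF1 replicate 1 or any 1 vehicle array, 4 rises were called, and 6 without IGF1 replicate 2 or 3. With single arrays left out, the fall was called only without IGF1 replicate 2. The fit on the 6 arrays called 4 rises and no fall.

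**Figure D2:**
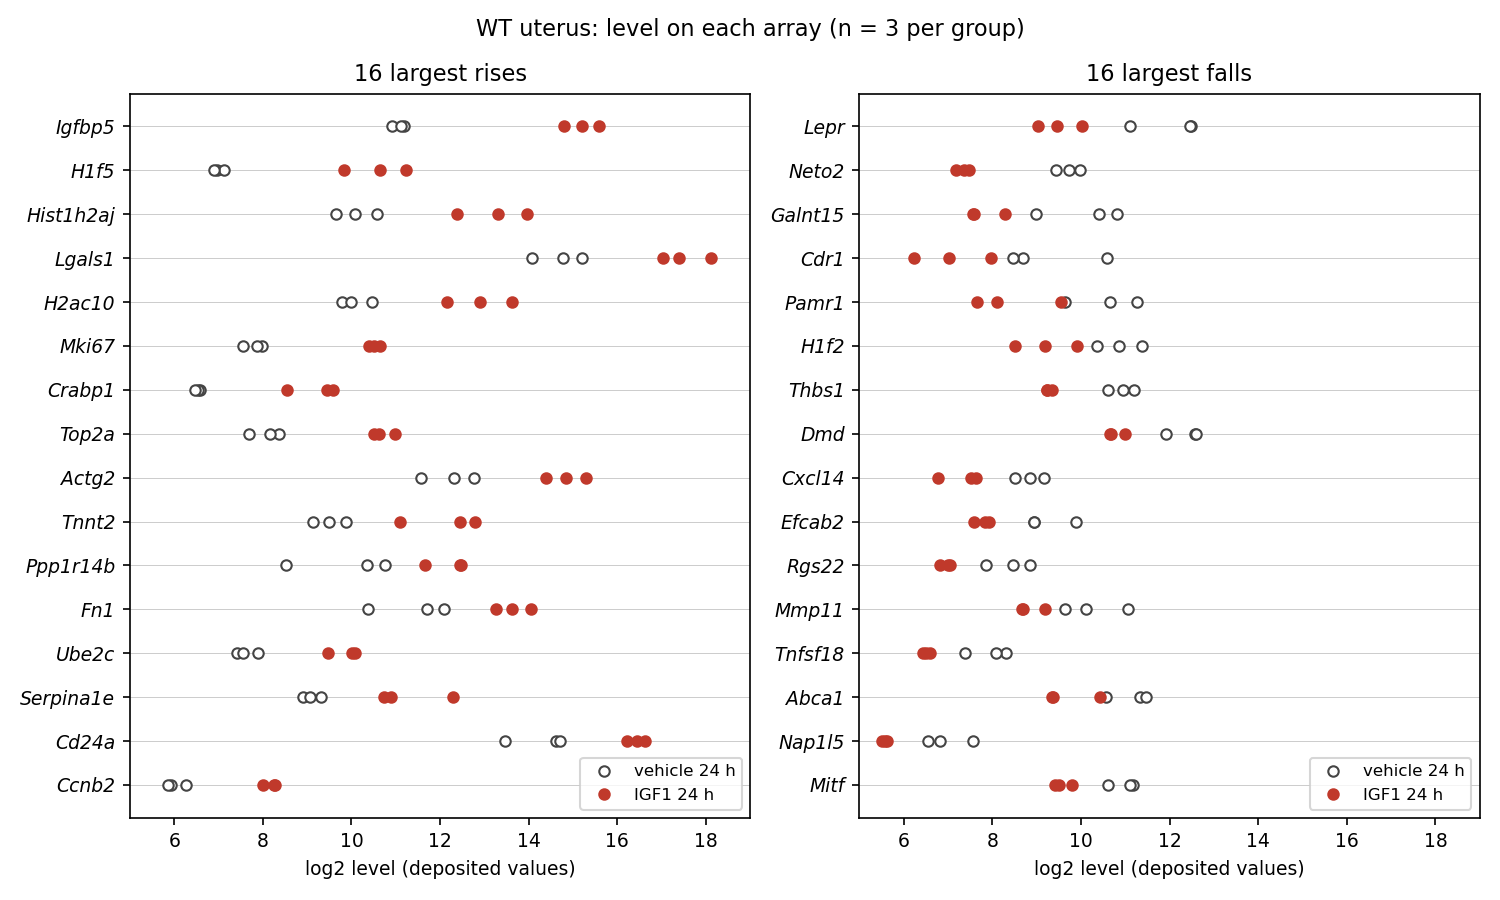
Log2 level on each array for the 16 largest rises (left) and the 16 largest falls (right) that met the naming rule, with open circles for vehicle and filled red circles for IGF1 (n = 3 each). The groups do not overlap in any row because the rule required it; Igfbp5, H1f5 and Hist1h2aj lead the rises and Lepr, Neto2 and Galnt15 the falls.

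Mitochondrial genes were higher. Of 34 measured genes of the respiratory chain and ATP synthase, 18 rose and none fell (52.9%, against 3.32% of all genes). All 34 differences were above 0, and the median was 0.81. Atp5g1, a membrane ring subunit of ATP synthase, measured 10.30, 8.97 and 9.91 with IGF1 and 8.16, 7.88 and 8.02 with vehicle (1.70 ± 0.37, limma adjusted p = 0.0107). Ndufa4 and Cox5b, subunits of cytochrome oxidase, rose by 1.61 ± 0.35 and 1.56 ± 0.30. Cox7a2 and Cox6a1, of the same complex, rose by 1.46 ± 0.37 and 1.44 ± 0.41, and Uqcrc1, of complex III, by 1.33 ± 0.29. In the citric acid cycle 7 of 20 rose and none fell (35%, median 0.66). Among them were citrate synthase Cs (1.83 ± 0.52), malate dehydrogenase Mdh2 (1.52 ± 0.34) and the 2-oxoglutarate dehydrogenase subunit Ogdh (1.06 ± 0.27). Cs measured 12.46, 12.04 and 12.59 with IGF1 and 9.40, 10.97 and 11.24 with vehicle, so that vehicle replicate 1 was the lowest of the 6 arrays. These counts rest on few arrays: the respiratory count was 6 without vehicle replicate 1, 1 without IGF1 replicate 1 and 5 without IGF1 replicate 3, and the citric acid cycle count 1, 0 and 1, with 4 without vehicle replicate 2 or 3. The fit on the 6 arrays alone called no member of either list. Glycolysis and glucose uptake had 4 rises of 20 (20%) and no fall, Pkm (1.07 ± 0.30), Gapdh (0.94 ± 0.20), Pgam1 (0.80 ± 0.21) and Hk1 (0.46 ± 0.13). That count was 1 without vehicle replicate 1, vehicle replicate 3 or IGF1 replicate 1, 2 without vehicle replicate 2, and 0 without IGF1 replicate 3 or in the fit on the 6 arrays.

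Protein folding in the endoplasmic reticulum (ER) was another group with rises. Of 24 measured ER chaperone and folding genes, 10 rose and none fell (41.7%, against 3.32% of all genes), with a median of 0.75. Calr, the calcium-binding chaperone calreticulin, measured 13.90, 13.04 and 14.40 with IGF1 and 12.40, 11.88 and 12.16 with vehicle (1.64 ± 0.29, limma adjusted p = 0.00276). P4hb, a protein disulfide isomerase that is also a subunit of collagen prolyl hydroxylase, measured 14.23, 13.97 and 14.48 against 12.31, 12.81 and 12.77 (1.60 ± 0.26, limma adjusted p = 0.00144). Both were higher on each IGF1 array than on any vehicle array. The translocon-associated gene Ssr2 rose by 1.55 ± 0.37, the disulfide isomerases Pdia3 and Pdia6 by 1.35 ± 0.26 and 1.06 ± 0.26, and Sdf2l1 by 1.03 ± 0.28. Without vehicle replicate 1, IGF1 replicate 1 or IGF1 replicate 3, 4 members were called in each case, and 1 in the fit on the 6 arrays.

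The ER stress element, which the factors ATF6 and XBP1 use, was searched on both strands as ERSE, CCAAT and CCACG separated by 9 bases, which overlaps the CCAAT letters. It was in 7 of the 21 ER genes with a window (33.3%), against 0.137% of all genes with one. Of these, Hspa5, Dnajc3 and Creld2 were not called (limma adjusted p = 0.0877, 0.424 and 0.756). Of the 3 shown, which rose and carry 1 match each, Calr has it on the opposite strand.
Calr (chr8:84847070-84847098, minus strand): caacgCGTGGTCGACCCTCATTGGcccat
Pdia6 (chr12:17266486-17266514, plus strand): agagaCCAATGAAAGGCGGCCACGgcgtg
Canx (chr11:50325795-50325823, minus strand): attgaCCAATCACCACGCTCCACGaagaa

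Cytosolic protein handling moved less evenly. In the proteasome list 11 of 25 subunits rose and none fell (median 0.71), led by Psmb1 (1.54 ± 0.37), Psma5 (1.44 ± 0.38), Psmc5 (1.41 ± 0.34) and Psmb3 (1.30 ± 0.37). Vehicle replicate 1 was the lowest array for Psmb1 (9.74, against 11.10 and 10.99 on the other vehicle arrays), and the count was 1 without it, 0 without IGF1 replicate 1 or 3 or in the fit on the 6 arrays, and 6 without vehicle replicate 3. Of 18 cytosolic chaperones and chaperonin subunits 3 rose, with Stip1, the co-chaperone that joins HSP70 and HSP90, at 1.29 ± 0.25, and the chaperonin subunits Cct2 and Cct4 at 0.85 ± 0.22 and 0.53 ± 0.14. Ribosome biogenesis had 3 rises of 28 (median 0.26): Nhp2, of the pseudouridine machinery, at 1.13 ± 0.26, Fbl, the methyltransferase fibrillarin, at 0.96 ± 0.22, and Polr1c, of RNA polymerases I and III, at 0.61 ± 0.13. Translation factors and aminoacyl-tRNA synthetases had 3 of 26 (Eif5a 1.15 ± 0.24, Eef1g 1.14 ± 0.32, Kars 1.03 ± 0.28), nucleotide and one-carbon synthesis 3 of 27 (Nme1, Nme2 and Tyms, at 1.42, 1.41 and 1.07), and ribosomal proteins 1 of 16 (Rplp0, 0.65 ± 0.17). None of these lists had a fall. Against 3.32% of all genes, the share that rose was 6.25% for ribosomal proteins, 10.7% for ribosome biogenesis and 11.1% for nucleotide synthesis. It was 11.5% for translation, 16.7% for cytosolic chaperones and 44% for the proteasome. The chaperone count was 1 without vehicle replicate 1, IGF1 replicate 1 or IGF1 replicate 3 and 8 without IGF1 replicate 2. The ribosome biogenesis count was 0 without vehicle replicate 1 or IGF1 replicate 3 and 1 without IGF1 replicate 1, and the translation count was 1 without vehicle replicate 1 and 0 without IGF1 replicate 1 or 3. The nucleotide count was 1 without IGF1 replicate 1 or 3 and 6 without IGF1 replicate 2, and Rplp0 was not called without vehicle replicate 1 or any 1 IGF1 array. Of these 5 lists, the fit on the 6 arrays called 1 nucleotide gene.

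Lipid synthesis genes rose in part. In cholesterol synthesis 6 of 18 rose and none fell (33.3%, against 3.32% of all genes). All 18 differences were above 0, and the median was 0.70. Fdps, farnesyl diphosphate synthase, measured 9.57, 7.93 and 9.07 with IGF1 and 7.34, 6.90 and 7.05 with vehicle (1.76 ± 0.36, limma adjusted p = 0.00762). Idi1, which makes the substrate of that enzyme, rose by 1.77 ± 0.43, the squalene epoxidase Sqle by 1.61 ± 0.40, and Srebf2, the transcription factor of the pathway, by 1.53 ± 0.30. Cyp51 and Nsdhl, which demethylate sterols, rose by 1.44 ± 0.38 and 1.42 ± 0.26. IGF1 replicate 2 was the lowest IGF1 array for Fdps, Idi1 and Sqle, and 10 members were called without it, against 4 without vehicle replicate 1, 3 without vehicle replicate 2 or IGF1 replicate 3, and 2 without IGF1 replicate 1. Fatty acid synthesis had 4 rises of 13 (30.8%), the desaturases Fads2 (1.44 ± 0.28) and Fads1 (1.28 ± 0.24) and the elongases Elovl1 (1.12 ± 0.28) and Elovl5 (1.05 ± 0.28). It had 2 without vehicle replicate 1, IGF1 replicate 1 or IGF1 replicate 3. Neither lipid list had a call in the fit on the 6 arrays. The promoter letters TCACNCCAC, a sterol regulatory element, were in 1 of 14 cholesterol genes with a window (7.14%) against 1.44% of all, while CCAAT was in all 14. The gene with the sterol element, Hmgcs1, was not called (limma adjusted p = 0.0855).

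**Figure D3:**
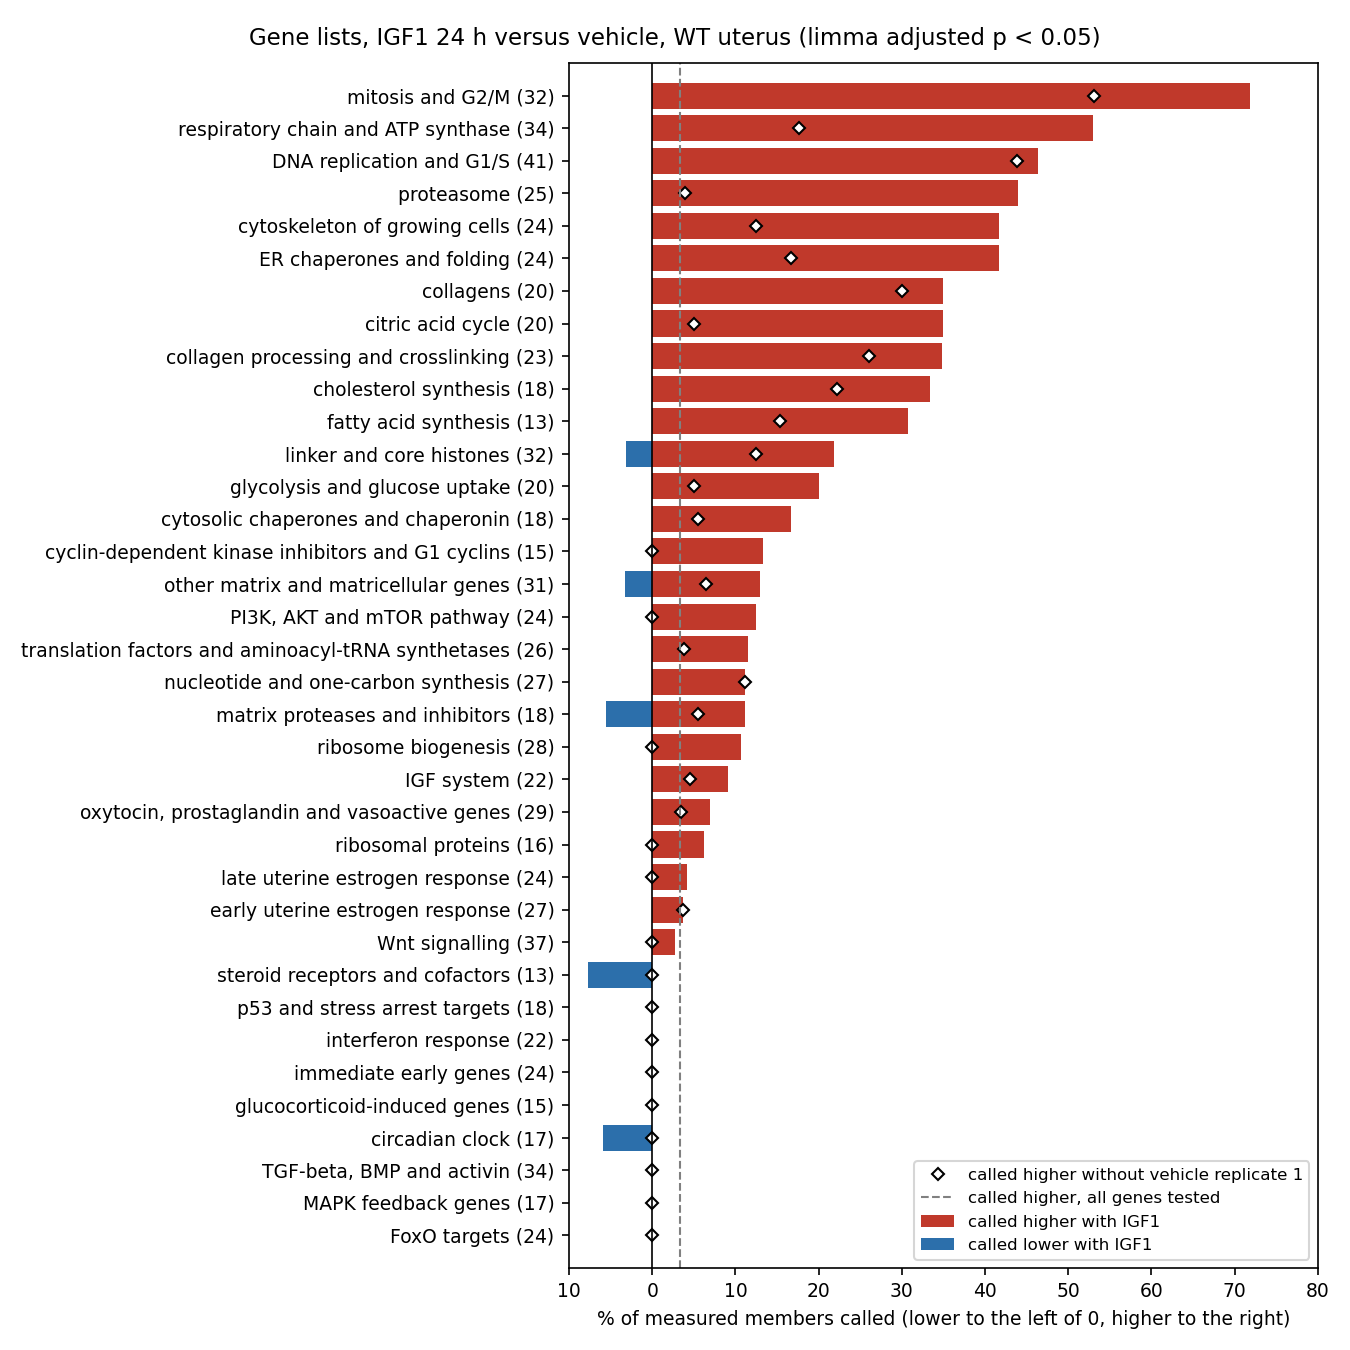
Percent of the measured members (number in brackets) of each gene list that were called higher (red, to the right of 0) or lower (blue, to the left) with IGF1 in WT uterus; diamonds show the percent called higher without vehicle replicate 1, and the dashed line is the 3.32% of all genes called higher. Mitosis leads at 71.9%, and for the proteasome, citric acid cycle and respiratory chain the diamonds lie far to the left of the bars.

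Collagen genes and the genes that process collagen were among the rises. Of 20 collagen genes 7 rose and none fell (35%, against 3.32% of all genes), with a median of 0.44. Col1a1, a chain of type I collagen, measured 10.98, 10.66 and 11.40 with IGF1 and 9.34, 8.78 and 8.96 with vehicle (1.99 ± 0.22, limma adjusted p = 0.000124). Col1a2, its partner chain, rose by 1.43 ± 0.23, Col3a1 by 1.54 ± 0.30, and the type VI chains Col6a2 and Col6a1 by 1.70 ± 0.24 and 1.15 ± 0.23. Col15a1 and Col18a1, of basement membrane zones, were also called. With single arrays left out, 4 to 7 collagen genes were called, the fewest without IGF1 replicate 3. Among genes that process and crosslink collagen, 8 of 23 rose and none fell (34.8%, median 0.40). Of this list 4 were called without IGF1 replicate 1 and 5 without IGF1 replicate 3. Serpinh1, the collagen chaperone HSP47, measured 15.89, 15.02 and 15.66 against 12.96, 13.67 and 13.48 (2.15 ± 0.43, limma adjusted p = 0.00677). The collagen-binding protein gene Sparc rose by 1.67 ± 0.30, the procollagen proteinase enhancer Pcolce 2.84-fold, the elastin crosslinking oxidase Loxl1 by 1.25 ± 0.31, and the ER proteins Fkbp14 and Crtap by 1.09 ± 0.22 and 1.02 ± 0.18.

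Of 31 other matrix and matricellular genes 4 rose (12.9%, against 3.32% of all genes) and 1 fell (3.23%, against 0.962%). Fn1, fibronectin, measured 13.26, 13.62 and 14.06 with IGF1 and 10.37, 11.70 and 12.09 with vehicle (2.26 ± 0.48, limma adjusted p = 0.0089), and its adjusted p was 0.068 without vehicle replicate 1. The proteoglycans Vcan and Bgn rose by 1.54 ± 0.34 and 1.35 ± 0.36, and Emilin1 by 0.63 ± 0.14. Thbs1, thrombospondin 1, fell: it measured 9.23, 9.34 and 9.23 against 10.61, 10.95 and 11.20 (-1.65 ± 0.44, limma adjusted p = 0.0323). This fall was not called with any 1 of the 6 arrays left out. Without IGF1 replicate 3 none of the 4 rises was called, and 2 were called without vehicle replicate 1 or IGF1 replicate 1; the fit on the 6 arrays called none of them. Among 18 matrix proteases and inhibitors 2 rose (11.1%) and 1 fell (5.56%). The protease Adamts9 rose (1.48 ± 0.17, limma adjusted p = 0.000124), as did Mmp19 (1.08 ± 0.24), while Mmp11, stromelysin 3, fell by 1.43 on the log2 scale. Mmp19 was not called without IGF1 replicate 1 or vehicle replicate 1, and the fall of Mmp11, called under 8 of 14 alternatives, was lost without IGF1 replicate 1 or 3 or vehicle replicate 2 or 3.

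Cytoskeletal and contractile genes were among the largest rises. In the list of cytoskeletal genes of growing cells 10 of 24 rose and none fell (41.7%, against 3.32% of all genes). All 24 differences were above 0, and the median was 0.97. Lgals1, galectin 1, measured 18.11, 17.02 and 17.40 with IGF1 and 14.08, 14.77 and 15.20 with vehicle (2.83 ± 0.53, or 7.1-fold, limma adjusted p = 0.00434). S100a6, a calcium-binding protein gene, rose by 1.77 ± 0.34, the tubulins Tuba1a and Tubb5 by 1.78 ± 0.50 and 1.51 ± 0.34, Anxa2 by 1.53 ± 0.37 and cofilin Cfl1 by 1.39 ± 0.33. Tuba1a was 12.49 on vehicle replicate 1 and 15.23 and 15.60 on the other vehicle arrays. Without vehicle replicate 1 the count was 3, without IGF1 replicate 1 it was 2, and without IGF1 replicate 3 it was 4. Actg2, the gamma actin of smooth muscle, measured 15.30, 14.39 and 14.85 against 11.58, 12.77 and 12.32 (2.62 ± 0.51, limma adjusted p = 0.00596). Tnnt2, which encodes cardiac troponin T, measured 12.46, 11.10 and 12.79 against 9.49, 9.88 and 9.12 (2.62 ± 0.57, limma adjusted p = 0.0105).

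Other genes of the 16 largest rises belonged to no single list. Crabp1, a cytosolic retinoic acid binding protein gene, measured 9.59, 8.55 and 9.45 with IGF1 and 6.59, 6.53 and 6.48 with vehicle (2.67 ± 0.37, or 6.35-fold, limma adjusted p = 0.000493), and was called under all 14 alternatives. Ppp1r14b, of a family of protein phosphatase 1 inhibitors, rose by 2.32 ± 0.46, and vehicle replicate 1 (8.52) was below the other vehicle arrays (10.35 and 10.76). Cd24a, a surface glycoprotein gene, rose by 2.17 ± 0.43. Serpina1e, of the alpha-1-antitrypsin family of protease inhibitors, rose by 2.21 ± 0.62, with 12.29 on IGF1 replicate 1 against 10.73 and 10.90 on the others; its paralogs are near-identical and may share probes, and its adjusted p was 0.13 without vehicle replicate 1. Of the 16 rises, Serpina1e and Fn1 lost their call when vehicle replicate 1 was left out.

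The falls were fewer, and no gene list had more than 1. Lepr, the leptin receptor, measured 9.45, 10.04 and 9.03 with IGF1 and 11.12, 12.48 and 12.47 with vehicle (-2.52 ± 0.46, or 5.72-fold lower, limma adjusted p = 0.0035). Neto2, an accessory subunit of kainate receptors, measured 7.19, 7.47 and 7.35 against 9.73, 9.98 and 9.44 (-2.38 ± 0.28, limma adjusted p = 0.000124) and was called under all 14 alternatives, with little spread within either group. Dmd, the gene of dystrophin, measured 10.67, 10.98 and 10.65 against 11.92, 12.57 and 12.61 (-1.60 ± 0.27, limma adjusted p = 0.00215), also called under all 14. The glycosyltransferase gene Galnt15 had a difference of -2.26 ± 0.64, Pamr1, an extracellular protein gene with a peptidase domain, -2.09 ± 0.53, and Cdr1 -2.18 ± 0.60. Cxcl14, an epithelial chemokine gene, measured 7.53, 6.78 and 7.63 against 9.16, 8.51 and 8.85 (-1.53 ± 0.32, limma adjusted p = 0.0079). Abca1, which exports cholesterol to lipoproteins, fell by 1.41, and the transcription factor gene Mitf by 1.39 on the log2 scale. Tnfsf18, a ligand of the tumour necrosis factor family, fell by 1.41, Efcab2 by 1.47 and Rgs22 by 1.44, and Nap1l5 reached background with IGF1, at least 2.18-fold lower. Cdr1, H1f2, Thbs1 and Efcab2 lost their call without vehicle replicate 1; for Cdr1 that array read 10.60 against 8.70 and 8.48, and the adjusted p without it was 0.25.

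Estrogen-responsive genes and steroid receptors did not move as a group. Of 27 measured early uterine estrogen response genes 1 rose (3.7%, against 3.32% of all genes), and the median was 0.01. The gene called was the brain-type creatine kinase Ckb (1.31 ± 0.23, limma adjusted p = 0.00271), long used as a marker of estrogen action. Of 24 late response genes 1 rose (4.17%), the epithelial adhesion gene Cdh1 (1.09 ± 0.29), and 8 were at background in both groups. Esr1, the gene of ERa, measured 12.19, 12.38 and 12.22 with IGF1 and 11.73, 12.43 and 12.73 with vehicle (-0.03 ± 0.19, limma adjusted p = 0.941). The estrogen target genes Pgr, the progesterone receptor, and Greb1 had differences of 0.17 ± 0.33 and -0.22 ± 0.14. Nr3c2, the mineralocorticoid receptor, was the only called member of 13 steroid receptor and cofactor genes, with a fall of 0.61 ± 0.14 that was not called after arrays were centred on their medians.

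Among other signalling lists, 1 of 37 Wnt genes rose (2.7%, against 3.32% of all genes), the stromal ligand Wnt5a (0.70 ± 0.15). Calls were 0 of 34 for TGF-beta, BMP and activin signalling and 0 of 22 for interferon response genes (median -0.31). They were 0 of 18 for p53 targets and 0 of 15 for glucocorticoid-induced genes. The smallest p in these 4 lists belonged to Tgfbr1 (-0.36 ± 0.12), Bst2 (1.05 ± 0.45), Perp (1.30 ± 0.40) and Mt2 (0.98 ± 0.41). Bst2 went against its list, in which 18 of the 22 interferon differences were below 0. Without overlap, 8 interferon genes lay below vehicle and 1 above, against 11.2% and 11.7% of all genes. For TGF-beta, BMP and activin genes these counts were 8 and 3 of 34. Of 17 clock genes 1 fell (5.88%, against 0.962% of all genes), Arntl, to background, by at least 1.42-fold. Among oxytocin, prostaglandin and vasoactive genes 2 of 29 rose (6.9%), the apelin receptor Aplnr (1.36 ± 0.28) and the prostaglandin E receptor Ptger3 (1.35 ± 0.38). Aplnr measured 9.05, 8.95 and 9.04 with IGF1 and 7.50, 7.56 and 7.88 with vehicle. Without vehicle replicate 1, Cdh1, Wnt5a, Arntl and Ptger3 were not called. Cdh1 also lost its call without vehicle replicate 3 or any 1 IGF1 array, and Wnt5a without IGF1 replicate 3. Arntl was also not called without IGF1 replicate 1 or 2 or vehicle replicate 3. The oxytocin, prostaglandin and vasoactive list had 1 rise without any 1 IGF1 array or without vehicle replicate 2.

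Cell type markers were read beside these groups, because in bulk tissue fewer cells of a type and less RNA per cell cannot be told apart. Uterine epithelium, stroma and smooth muscle markers were all detected, with no member of these 3 lists at background in both groups. Of 14 epithelium markers 2 rose (14.3%, against 3.32% of all genes), Cdh1 and the splicing factor gene Esrp1 (0.95). The median of the list was 0.52, and its mean level was 9.35 to 9.54 on the IGF1 arrays against 8.71 to 9.11 on the vehicle arrays. Of 15 smooth muscle markers 2 rose (13.3%), Actg2 and desmin Des (1.75), with a median of 0.69 and mean levels of 12.75 to 13.07 against 11.68 to 12.33. Of 12 stroma markers 2 rose (16.7%), Col1a1 and Col3a1, with a median of 0.32 and mean levels of 11.47 to 11.71 against 10.62 to 11.14. Vehicle replicate 1 had the lowest mean of all 6 arrays for each of these 3 lists, and the part of cell composition in the results was not tested. In skeletal muscle markers Acta1, the skeletal alpha actin, rose by 1.79, while Myh1, Myh4, Myl1 and Mylpf were at background. Single rises were also called for the endothelial gene Eng (1.04) and the gland gene Ttr (1.17). Without vehicle replicate 1, IGF1 replicate 1 or IGF1 replicate 3, 0 epithelium markers and 1 smooth muscle marker were called. Eng lost its call when any 1 of these arrays or vehicle replicate 2 was left out, and Acta1 without IGF1 replicate 1. The stroma and gland counts did not change with any 1 array left out. The fit on the 6 arrays called no epithelium, gland, endothelium or skeletal muscle marker. It called 1 smooth muscle marker, 2 stroma markers and 1 rise among mast cell and eosinophil markers. Markers of lymphatic endothelium, pericytes, macrophages, mast cells and eosinophils, T and NK cells, B and plasma cells, erythroid cells, adipocytes, mesothelium, oviduct, ovary and nerve had no called member. Of the neutrophil markers, S100a8 and S100a9 had differences of 2.99 and 2.15 that were not called (limma adjusted p = 0.34 and 0.5), with Ly6g, Cxcr2, Mmp8 and Csf3r at background; the mean level of mesothelium markers was 8.86, 9.02 and 7.55 with IGF1 and 7.69 to 7.85 with vehicle.

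A direct contrast with WT uteri 2 h after a single IGF1 injection asked how the late state differed from the early one; it shares the 24 h IGF1 arrays with the comparison above and also differs in the number of injections. Over all genes, 7.94% were higher at 24 h and 6.57% were lower, and the balance turned with the scaling: 54.7% of the calls were higher as deposited, 44.3% after centring on medians and 47% after quantile normalization. The second of the 2 h arrays stood apart: its mean adipocyte marker level was 11.82, against 8.91 and 8.12 on the other 2 h arrays, and its mean neutrophil marker level 8.67 against 6.32 and 6.11. Adipocyte markers had a median of -1.89 in this contrast, with none of 8 called, and their part in it was not tested. Mitosis genes were higher at 24 h for 27 of 32 (median 1.24), but for 14 without that array, whose mean for the list was -0.54 against 0.13 and 0.49. Replication genes were higher for 25 of 41, with 1 lower; 15 were higher without IGF1 24 h replicate 3 and 19 without the second 2 h array. Immediate early genes were lower for 17 of 24 and higher for none (median -1.26): their mean level against the vehicle mean was 1.21, 1.37 and 1.13 at 2 h and 0.06, -0.06 and -0.06 at 24 h, and 14 were lower without the second 2 h array. Srf, which drives many of them, was lower at 24 h by 2.48 on the log2 scale. MAPK feedback genes were lower for 9 of 17, ribosome biogenesis genes for 18 of 28, translation genes for 15 of 26, and cytosolic chaperones for 9 of 18, with no member of these lists higher. FoxO targets went the other way, with 12 of 24 higher and 2 lower (median 0.90); their mean was -1.34, -1.11 and -1.41 at 2 h and -0.30, 0.07 and -0.37 at 24 h, where the vehicle arrays spanned -0.17 to 0.16. Respiratory chain genes differed little between the times (2 higher and 1 lower of 34). Igfbp5 stood at 12.46, 11.69 and 12.38 at 2 h and was higher at 24 h by 3.01 (limma adjusted p = 0.000515). Thbs1 stood at 13.45, 14.10 and 13.55 at 2 h and was lower at 24 h by 4.43 (limma adjusted p = 1.26e-06).

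**Figure D4:**
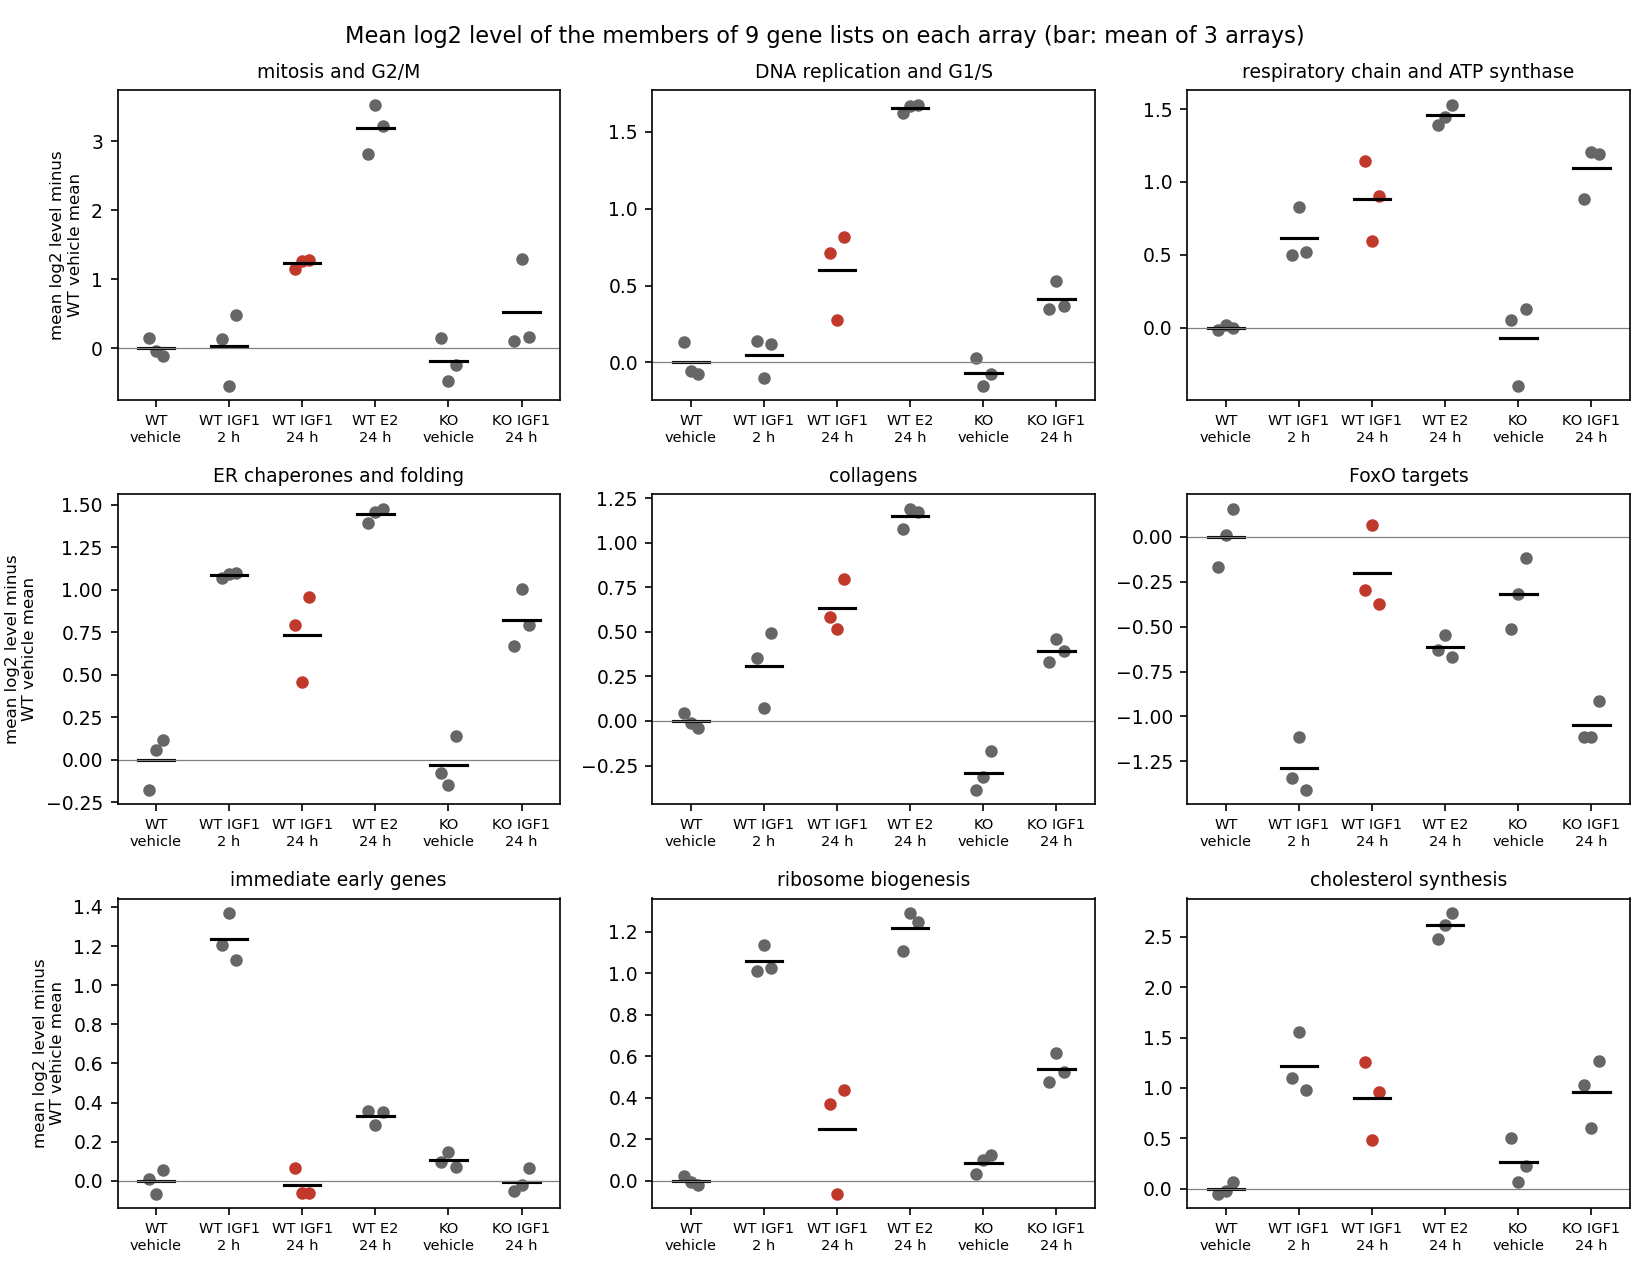
Mean log2 level of the measured members of 9 gene lists on each array of 6 groups, minus the mean of the 3 WT vehicle arrays; red points are WT IGF1 24 h and bars are means of 3 arrays. Mitosis genes stand at 1.14 to 1.28 after 24 h of IGF1 and at 2.81 to 3.53 after 24 h of E2, while immediate early genes lie between -0.06 and 0.06 at 24 h of IGF1.

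A direct contrast with WT uteri 24 h after E2 set the size of the IGF1 response against that of the hormone; it again shares the IGF1 arrays, and E2 was given once. Over all genes, 2.49% were higher with IGF1 than with E2 and 7.59% were lower. Cell type markers moved with this contrast: 9 of 14 uterine epithelium markers were lower with IGF1 than with E2 (median -1.74), and their mean against the WT vehicle mean was 0.66, 0.63 and 0.47 with IGF1 and 2.27, 2.30 and 2.25 with E2. Their part in the lists that follow was not tested. All 32 mitosis genes were lower with IGF1 than with E2 (median -1.92), as were 35 of 41 replication genes (median -0.94), all 18 cholesterol synthesis genes (median -1.52), 23 of 28 ribosome biogenesis genes and 19 of 25 proteasome genes. Without IGF1 replicate 2 the last 2 counts were 15 and 8, and the proteasome count was 10 without E2 replicate 2 or 3. Circadian clock genes went the other way, with 9 of 17 higher with IGF1 than with E2 and 2 lower (median 0.96), and 6 higher without IGF1 replicate 2. Mki67 stood at 10.39, 10.65 and 10.51 with IGF1 and 12.41, 13.12 and 12.89 with E2, a difference of -2.28 (limma adjusted p = 0.012). Late estrogen response genes were lower with IGF1 for 17 of 24 (median -2.05) and higher for none. The difference was not called for Igfbp5 (1.25 ± 0.55, limma adjusted p = 0.18), which stood at 13.65, 14.05 and 14.13 with E2, nor for Fn1 (0.22), Actg2 (-0.23), Lgals1 (-0.17) or Lepr (0.65). Within the IGF system, 3 of 22 genes were called higher with IGF1 treatment than with E2 and 3 were called lower. Igf1 was lower by 1.88, while Igfbp3, Stc1 and Pappa were higher by 3.03, 3.67 and 1.35. The count over all genes, 3037, was 1583 without IGF1 replicate 2, 1880 without E2 replicate 2 and 1946 without E2 replicate 3.

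The same 24 h IGF1 schedule in KO uteri was compared with KO vehicle, on arrays shared with none of the comparisons above. PBS and the number of injections differ here too. KO vehicle uteri already differed in marker means from the WT vehicle mean. The KO vehicle arrays stood at 0.88 to 1.20 for epithelium, -1.12 to -0.77 for gland and -0.92 to -0.24 for stroma markers. The part of ERa itself, apart from these differences, was not tested. In KO, 9.28% of genes were higher and 4.35% lower. Of the 1001 genes that rose in WT, 761 also rose in KO, which is 76% of the WT rises and 27.2% of the 2796 KO rises, and of the 290 that fell in WT, 135 fell in KO, 46.6% of the WT falls and 10.3% of the 1311 KO falls. The KO total of 4107 was 2544 without KO vehicle replicate 2 and 2644 without KO IGF1 replicate 3. Igfbp5 rose by 3.89 in KO and 4.12 in WT, Fn1 by 2.49 and 2.26, Lgals1 by 3.95 and 2.83, Crabp1 by 2.25 and 2.67, and Mki67 by 2.10 and 2.72. Of the 16 largest WT rises 12 were called higher in KO and of the 16 largest falls 12 were called lower; H1f5 (1.51), Tnnt2 (1.13), Cd24a (1.20) and Ccnb2 (1.21) were positive in KO without a call. Thbs1 and Cxcl14, which fell in WT, had differences of 0.09 and -0.10 in KO, and the test of the difference between genotypes gave 1.74 (limma adjusted p = 0.66) and 1.43 (limma adjusted p = 0.6). The mitosis list had 11 rises of 32 in KO (median 0.71); its mean against the WT vehicle mean was 0.10, 1.29 and 0.17 on the KO IGF1 arrays and -0.47 to 0.15 on the KO vehicle arrays. The second KO IGF1 array alone reached the level of the WT IGF1 arrays; Mki67 stood at 8.25, 10.69 and 8.38 on the KO IGF1 arrays and 7.76, 6.37 and 6.90 on the KO vehicle arrays. Without that array no mitosis gene was called higher in KO and 1 was called lower (median 0.36), without KO vehicle replicate 2 none was called, and without KO vehicle replicate 3 there were 3 rises. The array also stood apart in cell type markers, with a neutrophil mean of 8.57 against 6.78 and 7.04 on the other KO IGF1 arrays and a smooth muscle mean of 12.81 against 11.72 and 11.86. Stroma markers rose for 6 of 12 in KO and 1 fell (median 1.11), with means of 11.05 to 11.36 after IGF1 and 10.01 to 10.68 after vehicle. The part of these markers in the KO changes was not tested. Respiratory chain genes rose for 29 of 34 in KO and proteasome genes for 22 of 25, and for 23 and 15 without the second KO IGF1 array.

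The change itself was tested between genotypes, KO minus WT, and 2 of 30142 genes were called (0.00664%; 2019 had an unadjusted p under 0.05). None of the 32 genes named above was among them, and with 3 arrays per group a call that is absent does not show that the changes were equal. Single arrays moved this count: it was 9 without KO IGF1 replicate 2, 5 without WT vehicle replicate 2, 2 without WT IGF1 replicate 1 or KO vehicle replicate 1, and 1 without each of the other 8 arrays. The called genes were Hpgds, hematopoietic prostaglandin D synthase, and Gm25346, a predicted gene at background in WT. Hpgds measured 7.47, 8.68 and 7.89 with IGF1 and 9.77, 9.12 and 9.58 with vehicle in WT, a difference of -1.48 ± 0.43 that just missed the threshold (limma adjusted p = 0.051). In KO it measured 6.97, 6.65 and 6.78 with IGF1 and 12.96, 13.46 and 11.93 with vehicle.

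**Figure D5:**
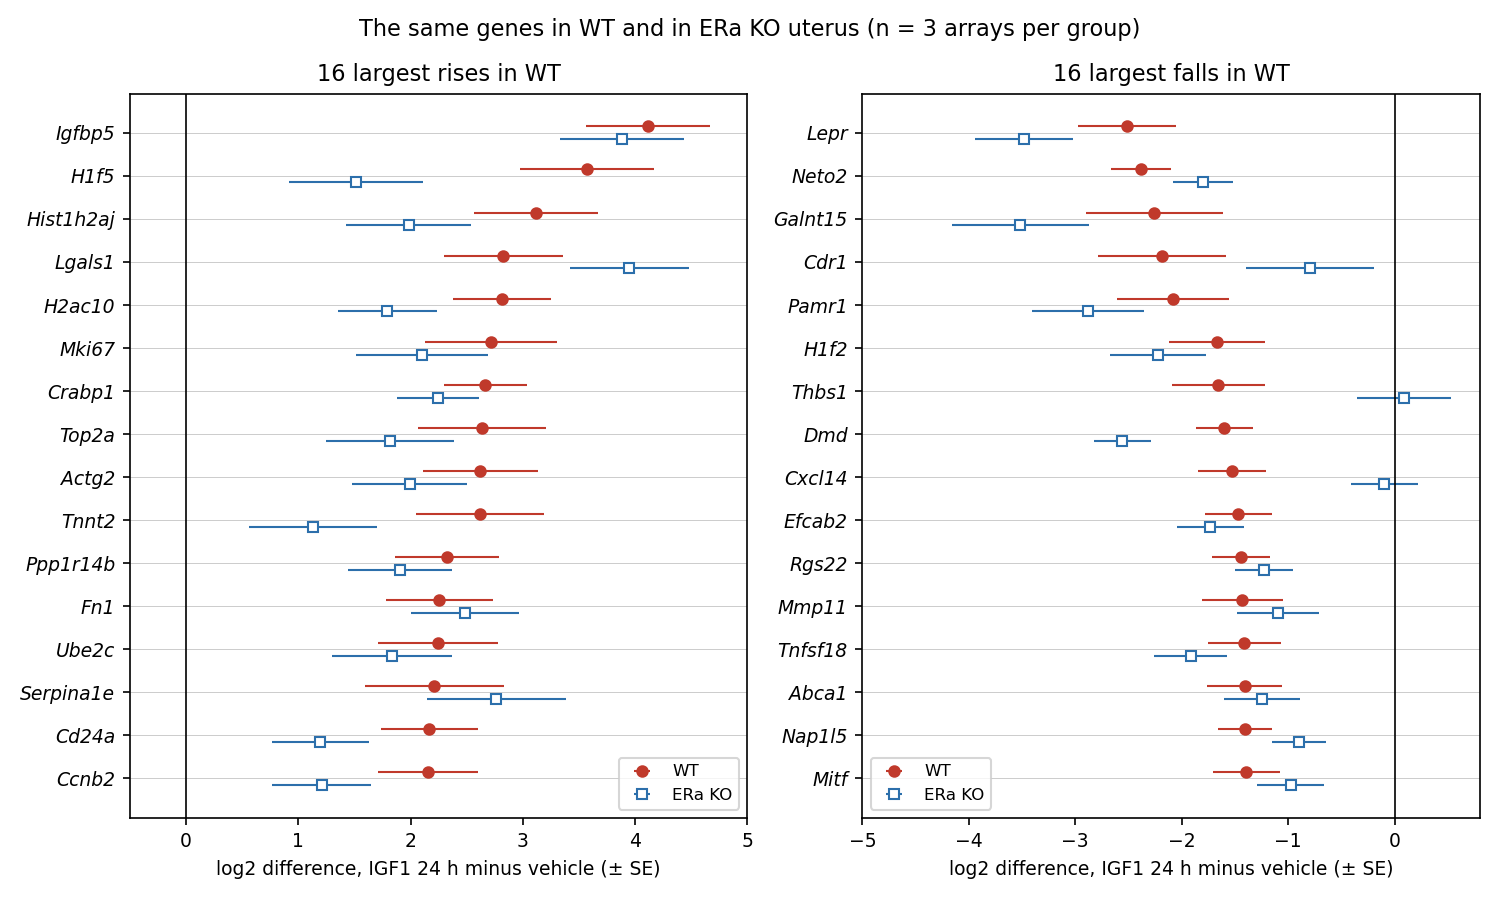
Log2 difference, IGF1 24 h minus vehicle, ± SE (n = 3 arrays per group) in WT (red circles) and ERa KO (open blue squares) for the 16 largest rises (left) and falls (right) of WT; the genes were chosen in WT, so the WT values are large by choice. Igfbp5 stands at 4.12 and 3.89, while Thbs1 and Cxcl14 stand near 0 in KO, a difference between genotypes that was not called.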

How the data were processed

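RNA of 30 mouse uterus samples, 3 in each of 10 groups, was measured on Affymetrix whole-transcript arrays; per the labels' protocols, 300 ng of total RNA extracted with Trizol and RNeasy was labelled with the WT Plus kit. The authors deposited log2 values for 72688 probe sets; for software, normalization and build, nothing is stated in the sources used here. The 30604 probe sets with 1 gene symbol gave 30142 genes (the probe set of highest mean for 355 genes with several). Group means over all 30 arrays were fitted with limma 3.58.1 in R 4.3.3 (20 residual and 3.66 prior degrees of freedom), with Benjamini-Hochberg adjustment within each comparison; the fit was tested on simulated data. Of 1135 planned list and marker genes, 106 had no probe set of their own and were left out. Members, lists and comparisons were chosen with earlier results of these data known. Named genes are the 16 largest rises and falls (limma adjusted p < 0.05, at least 2-fold, no overlap of arrays, higher mean above the floor, predicted genes and receptor segments left out), up to 6 called members per list and direction or, with none called, the one of smallest p, all IGF system genes, Esr1, Pgr, Greb1, Mki67 and Xist, and called interaction genes; Gm25346, single marker genes and further list members are named after their values were seen. Replicate numbers were not taken to pair arrays. Promoter windows are RefSeq's. Alternatives were median centring, quantile normalization, removal of dim genes, mean probe sets, only the compared groups, a trended robust prior, array weights, a replicate block and leaving out each array.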

Additional observations from a re-analysis of the deposited data

Results flagged for a closer look

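The response of Hpgds, hematopoietic prostaglandin D synthase, to 24 h of IGF1 differed between genotypes by the test of the difference itself. The change in KO was -5.98 ± 0.43 and in WT -1.48 ± 0.43, and the KO change minus the WT change was -4.51 ± 0.61 (limma adjusted p = 0.00394), higher in vehicle than in IGF1 on every array of both genotypes. This call held under each alternative and with each of the 12 arrays left out (limma adjusted p = 0.000325 to 0.0356). KO vehicle arrays stood at 11.93 to 13.46 and WT vehicle arrays at 9.12 to 9.77, while the IGF1 arrays stood at 6.65 to 6.97 in KO and 7.47 to 8.68 in WT. KO arrays 24 h after E2 stood at 12.27 to 12.63. At 2 h, KO arrays stood at 8.73 to 10.08 after E2 and at 8.81 to 10.93 after IGF1. No vehicle group was taken at 2 h, so the part of time in these lower 2 h levels was not tested. Groups of 3 arrays were too small to test single arrays as outliers.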

How the results depend on the processing

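The arrays were deposited as log2 values of unknown normalization, with 3 arrays per group, a vehicle array that stands apart and 13655 genes that the dim filter removed. For IGF1 against vehicle in WT, no gene checked changed sign where it was called. The genes checked were the 32 largest rises and falls, called list members, the IGF system, Esr1, Pgr, Greb1 and Xist. Single marker genes and the other comparisons were not checked in this way. The 1291 calls became 136 when only the 6 compared arrays were fitted (128 shared) and 3946 with array weights, and ranged from 278 to 1343 with single arrays left out. Median centring raised the higher share from 77.5% to 83.1%, quantile normalization lowered it to 66.8% and array weights to 62.4%. The 4375 calls against 2 h became 6904 with array weights (3040 to 3716 with arrays left out), and their balance reversed, from 54.7% higher to 44.3% with centring and 47% with quantile normalization. The 3037 calls against E2 became 5495 with array weights (1583 to 2626), and their higher share of 24.7% became 34.9% with quantile normalization and 35.7% with array weights. The 2 genotype calls became 1 with centring, with quantile normalization, with dim genes removed and with the replicate block, and 18 with array weights (1 to 9 with arrays left out). The 4107 calls in KO ranged from 2544 to 3591, and their higher share of 68.1% became 52.9% with quantile normalization. The causes were not tested. With the replicate number as a block, 1166 genes were called (911 higher, 255 lower); same-numbered IGF1 and vehicle arrays correlated in their deviations at 0.19, 0.1 and 0.08. In the genotype test WT and KO vehicle arrays correlated at 0.43, 0.15 and 0.3, but WT and KO IGF1 arrays at -0.15, -0.05 and -0.07. The numbers were therefore not taken to pair arrays; with the block, Hpgds kept its genotype call (limma adjusted p = 0.0133) and Gm25346 did not (0.0635). Of the 32 largest rises and falls, 17 lost their call in the fit on the compared groups and 13 without IGF1 replicate 1, and none with array weights, the replicate block or the dim filter.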
